A study of Rattus norvegicus with 12 samples.

Results

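The genes described here make, package, retrieve and break down the inhibitory transmitter GABA, or form its metabotropic receptor, in the brains of blast-exposed rats fed boldine, a plant alkaloid. They are 7 of the 17494 genes in the deposited count table and were chosen by name: Gad1 and Gad2, Slc32a1, Slc6a11, Abat, Gabbr1 and Gabbr2. All 7 were counted, and all 7 were among the 12325 genes that passed the filter on low counts. None of the 7 differed between boldine-fed and control rats beyond the spread between rats, and each of their ranges overlapped between the groups.

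GABA is made from glutamate by the glutamate decarboxylases encoded by Gad1 and Gad2, which are largely restricted to inhibitory neurons. The vesicular transporter encoded by Slc32a1 loads it into synaptic vesicles, and after release it is taken up by plasma membrane transporters, among them the mainly astrocytic one encoded by Slc6a11. GABA transaminase, encoded by Abat, then degrades it in mitochondria. In the hippocampus inhibitory interneurons set the timing and excitability of principal cells, and GABA-B receptors, obligate pairs of the Gabbr1 and Gabbr2 proteins coupled to inhibitory G proteins, slow transmitter release and open potassium channels.

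Male wild-type (WT) Long Evans rats received 3 low-level blasts, 1 per day, at 10 weeks of age. The blast-boldine group (n = 6, rats 12, 17, 19, 20, 32 and 35) then ate chow with 500 mg/kg boldine from week 2 after blast until sacrifice at 29 weeks, and the blast-control group (n = 6, rats 1, 4, 5, 6, 7 and 9) ate the same chow without it. Every library thus came from a blast-exposed animal, so an effect of blast itself, or of boldine without blast, was not analysed here. One RNA library was sequenced from each rat; the labels give the tissue as brain and the study's methods as hippocampus. The comparison asks whether boldine in chow changed gene expression after blast.

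One library stood far apart. Rat 6, a control, had 74008 counts over 7153 detected genes, against 10148474 to 40850106 counts (median 17720959) in the other 11. A floor of 3 counts corresponds to 47.5 CPM (counts scaled to library size, so that libraries can be compared) in rat 6 and to at most 0.307 CPM elsewhere, so values for the 7 genes are given with and without rat 6. The 11 other libraries fell into sets along the first principal component, which held 66% of their variance. The first set holds rats 1, 7, 9, 20, 32 and 35 and the second rats 4, 5, 12, 17 and 19, with rat 6 also placed in the second by its library number. The library numbers S1 to S6 each occur on a pair of libraries. With each number once per set, and rat numbers rising with the library number within a set, an order assumed here, 4 ways to form sets remain. The one used was that which explained most of this component (95.1%, against 1.53% for treatment), so differences between sets are given as descriptions without a test. What the sets are is not stated in the labels. Both treatments occur in both sets, and the treatment comparison was therefore also fitted with set as a covariate.

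The markers of hippocampal excitatory neurons (Slc17a7, Neurod6, Prox1, Fibcd1, Wfs1, Grik4 and Camk2a) were all detected in every library, rat 6 included. Their summed level was 3004 to 3659 CPM in blast-boldine and 2682 to 5097 CPM in blast-control rats. The 15 measured interneuron markers of 16 listed, among them Sst, Pvalb and Lhx6, summed to 538.6 to 986 CPM in blast-boldine and 521.9 to 967 CPM in blast-control rats, and 8 of the 15 had no count in rat 6. In whole tissue, fewer cells of a type and less RNA per cell cannot be told apart.

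The upstream sequences of a pair of these genes are shown because Gad2 and Slc32a1 both mark inhibitory neurons and both enter the ratio of packaging to synthesis transcripts described below. Promoter entries from RefSeq (build GRCr8) matched 6 of the 7 genes. The 250 bases before the annotated start of Gad2 lie at chr17:89671468-89671717 on the plus strand, and those of Slc32a1 at chr3:167686995-167687244 on the plus strand. Capitals mark matches, on either strand, to the TATA box (letters TATAAA), to the GC box (letters GGGCGG) and to the core of the cAMP response element (letters TGACG).
Gad2: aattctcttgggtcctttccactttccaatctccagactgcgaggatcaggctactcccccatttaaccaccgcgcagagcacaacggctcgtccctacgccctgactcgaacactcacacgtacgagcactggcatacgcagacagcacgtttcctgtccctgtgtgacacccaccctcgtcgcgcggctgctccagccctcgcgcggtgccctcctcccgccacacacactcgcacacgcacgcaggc
Slc32a1: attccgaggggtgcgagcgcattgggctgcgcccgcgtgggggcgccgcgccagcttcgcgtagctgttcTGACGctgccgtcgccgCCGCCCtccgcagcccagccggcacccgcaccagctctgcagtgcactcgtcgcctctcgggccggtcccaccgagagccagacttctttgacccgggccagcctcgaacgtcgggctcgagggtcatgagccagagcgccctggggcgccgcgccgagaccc
The Slc32a1 window held 1 core of the cAMP response element and 1 GC box (on the minus strand), which did not overlap. The Gad2 window held none of the 3 motifs. Of 33469 rat windows of the same length, 18.2% held the response element core, 30.5% the GC box and 12.9% the TATA box. Their median GC content was 51.2%, against 62.0% for Gad2 and 73.6% for Slc32a1.

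Transcript levels of the GABA genes spanned about an order of magnitude when expressed per kilobase of exon, over the 11 rats without rat 6. Gabbr1 was highest at 225.6 ± 33.5 CPM per kb (SD, n = 11), and in each of the 11 rats it exceeded Gabbr2 at 81.6 ± 16.9. Abat at 68.5 ± 9.76, Gad1 at 64.5 ± 10.3 and Gad2 at 63.3 ± 11.6 CPM per kb followed, and the ranges of Gabbr2, Abat, Gad1 and Gad2 each overlapped that of the next gene in this order. Slc6a11 (33.7 ± 7.22) and Slc32a1 (19.3 ± 2.10 CPM per kb) were lowest. The ranges of these last 2 genes did not overlap, and Slc6a11 was the higher in all 11 rats. Slc32a1 nonetheless lay at percentile 56.8 of all genes tested on this scale, and Gabbr1 at percentile 98.6.

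**Figure D1:**
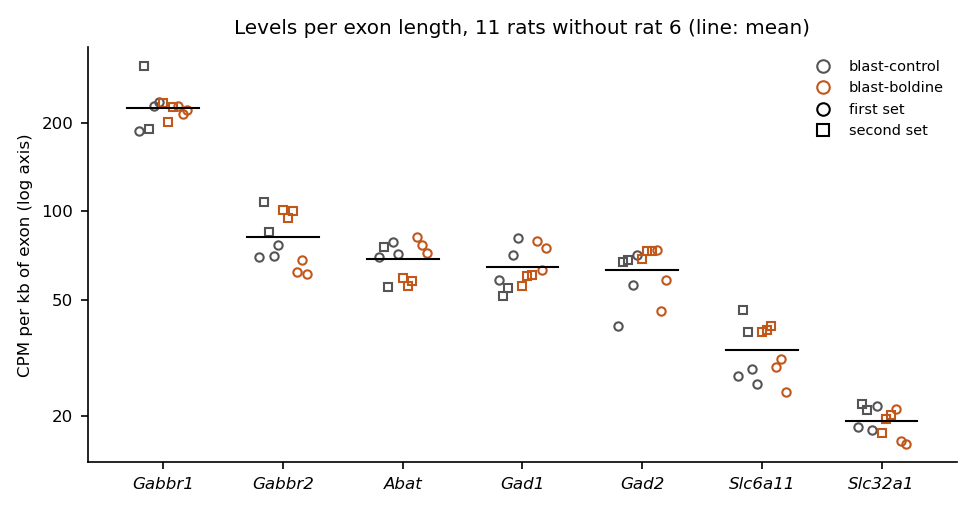
Level of each gene in CPM per kb of exon (log axis), with 1 point per rat for the 11 rats without rat 6, coloured by treatment and shaped by library set, and a line at the mean. Gabbr1 stands above the rest at a mean of 225.6, Slc32a1 is lowest at 19.3, and Gabbr2 and Slc6a11 split by library set.

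Synthesis was measured by Gad1 and Gad2. Gad1 lies at chr3:55369704-55410335 (mRatBN7.2, plus strand) and Gad2 at chr17:84763630-84826153 (plus strand), and counts were summed over their exons. Gad1 was at 177.6, 197.7 and 252.6 CPM (lowest, median, highest) in blast-boldine rats and at 95.05, 180.7 and 258.9 CPM in blast-control rats. The lowest control was rat 6, whose 6 counts carry an exact 95% counting interval of 34.9 to 206.9 CPM, and the highest value of all was also a control. The means were 209.7 ± 29.6 (SD, n = 6) and 184.5 ± 56.3 CPM (n = 6), or 202.4 ± 39.6 (n = 5) without rat 6. In edgeR's quasi-likelihood fit the log2 fold change of Gad1, blast-boldine over blast-control, was 0.13 (95% interval -0.26 to 0.52, adjusted p = 1.0).

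Gad2 ran at 89.5, 139.5 and 145.2 CPM in blast-boldine rats and at 79.2, 121.0 and 138.8 CPM in blast-control rats. The highest 3 boldine-fed values lay above every control, but the lowest boldine-fed rat, rat 32, lay under 4 of the 6 controls. Its edgeR log2 fold change was 0.15 (-0.23 to 0.53, adjusted p = 1.0). Without rat 6 the log2 fold changes were 0.05 for Gad1 and 0.11 for Gad2, and with library set as a covariate as well they were 0.09 for each. Both genes stayed on the positive side in all 22 settings tried, but the smallest unadjusted p was 0.207 for Gad1 and 0.186 for Gad2. Exact two-sided permutation tests of mean log2 CPM gave p = 0.335 for Gad1 and 0.255 for Gad2 with all rats, and 0.669 and 0.509 without rat 6.

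Vesicular packaging was measured by Slc32a1, at chr3:147267373-147271842 (plus strand), a gene of only 2 exons. It was at 38.5, 44.2 and 50.2 CPM in blast-boldine rats. In blast-control rats it was at 0, 46.8 and 52.6 CPM, and the 0 is rat 6, where no count allows a level up to 47.5 CPM by the 3-count floor. Rat 6 thus says nothing on whether Slc32a1 was lower there. Without it the means were 44.1 ± 4.96 CPM (n = 6) in blast-boldine and 48.1 ± 4.56 CPM (n = 5) in blast-control rats, with overlapping ranges.

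The edgeR log2 fold change of Slc32a1 was -0.06 (-0.50 to 0.38, adjusted p = 1.0) with all rats. It was -0.13 without rat 6 and -0.14 (-0.33 to 0.05) with library set as a covariate as well, where its unadjusted p of 0.137 was the smallest of any of the 7 genes in any of the 22 model fits. It was negative in all 22 settings. On mean log2 CPM the difference was 1.32 with rat 6, whose absent count dominates that mean, and -0.13 without it (exact permutation p = 0.186). Taken as the mean of the within-set differences, without rat 6, it was -0.15 (exact permutation within sets, p = 0.12).

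Uptake was measured by Slc6a11, at chr4:147297972-147413319 (plus strand). It was at 46.7, 67.7 and 78.4 CPM in blast-boldine rats and at 0, 54.5 and 88.8 CPM in blast-control rats. The 0 is again rat 6 and again under its floor, with an exact 95% counting interval of 0 to 58.4 CPM. Without rat 6, the high and low values followed the library sets. The 5 rats of the second set had 75.0 to 88.8 CPM and the 6 of the first had 46.7 to 60.4 CPM, which did not overlap. The counting interval of rat 6 lay below those 5 rats, although its library number places it in the second set. The cause was not tested. The log2 fold change of Slc6a11 by treatment was 0.10 (-0.46 to 0.66, edgeR adjusted p = 1.0). Without rat 6 it was 0.02 (-0.40 to 0.44), and with set as a covariate as well it was -0.02 (-0.20 to 0.16), a narrower interval on either side of 0.

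Breakdown was measured by Abat, at chr10:6999819-7092835 (minus strand). It was at 95.6, 113.4 and 140.5 CPM in blast-boldine rats and at 15.8, 121.7 and 135.7 CPM in blast-control rats. The 15.8 CPM in rat 6 rests on 1 count, with an exact interval of 0.401 to 88.3 CPM, and stands apart from the other 5 controls at 95.3 CPM or more. Its edgeR log2 fold change of 0.03 (-0.44 to 0.51, adjusted p = 1.0) became -0.06 (-0.35 to 0.22) without rat 6.

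The receptor genes were the most abundant. Gabbr1, at chr20:1464534-1493994 (minus strand), encodes the subunit that binds GABA. It was at 888.0, 986 and 1028 CPM in blast-boldine rats and at 792.1, 920.6 and 1377 CPM in blast-control rats. The boldine-fed rats lay close together, with a coefficient of variation of 5.26%, against 22.4% among controls, where rat 4 was highest; the difference in spread was not tested. The log2 fold change of Gabbr1 was -0.01 (-0.33 to 0.30, edgeR adjusted p = 1.0). Without rat 6 it was -0.06 (-0.35 to 0.22), and leaving out rat 4 instead turned it to 0.11.

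Gabbr2, at chr5:60947526-61288104 (minus strand), encodes the subunit that couples to the G protein and brings the receptor to the cell surface. It was at 333.9, 445.0 and 549.4 CPM in blast-boldine rats and at 221.8, 401.9 and 588.0 CPM in blast-control rats. Like Slc6a11, it split by library set, with 463.1 to 588.0 CPM in the second set and 333.9 to 420.2 CPM in the first, without rat 6. Rat 6, at 14 counts, had an exact 95% counting interval of 121.3 to 372.1 CPM, also below the rest of the second set. The log2 fold change of Gabbr2 by treatment was 0.08 (-0.37 to 0.54, edgeR adjusted p = 1.0) with all rats. Without rat 6 it was -0.01 (-0.42 to 0.39), and with set as a covariate as well it was -0.09 (-0.26 to 0.08).

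**Figure D2:**
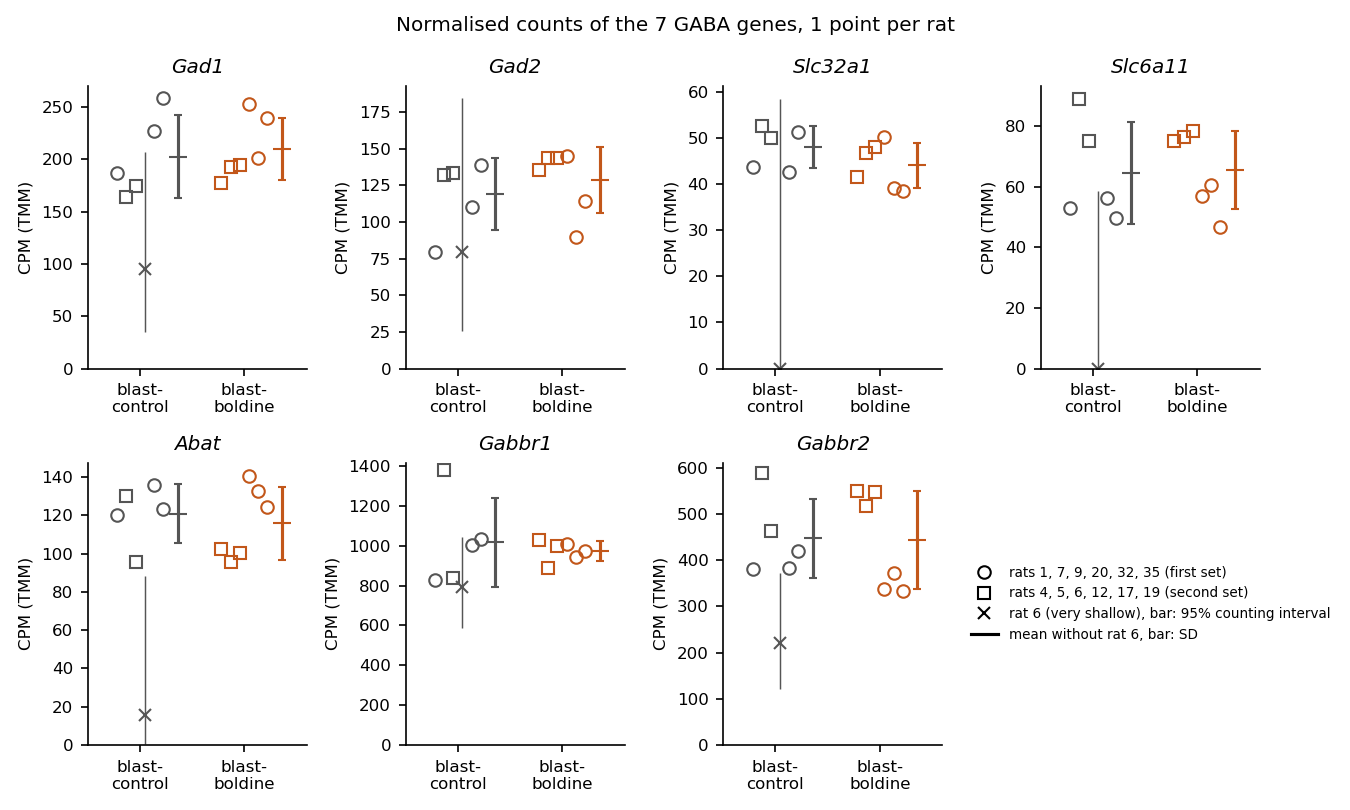
CPM (TMM-scaled) of each gene by treatment, with 1 point per rat, circles for the first and squares for the second library set, a cross with its exact 95% counting interval for rat 6, and the mean and SD without rat 6 beside each group. The groups overlap in all 7 panels, and circles and squares do not overlap for Slc6a11 and Gabbr2.

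Counted together, 0 of the 7 genes reached an unadjusted p below 0.05 by edgeR's test. Over all genes tested that share was 1.07% with all rats, 1.4% without rat 6, 3.85% with set as a covariate and 5.35% without rat 6 and with set as a covariate, and no gene passed an adjusted p of 0.05 in any of these fits. DESeq2 also left 0 of the 7 genes under an unadjusted 0.05, against 0.542% of the genes it tested. Groups did not overlap for 0 of the 7 genes, against 0.0811% of all genes with rat 6 and 0.152% without it. The edgeR intervals give the range of treatment differences that these data did not exclude. With all rats the 7 intervals reached from -0.50 (Slc32a1) to 0.66 (Slc6a11) on the log2 scale. Without rat 6 they reached from -0.42 (Gabbr2) to 0.49 (Gad2). Without rat 6 and with set as a covariate they reached from -0.33 (Slc32a1) to 0.38 (Gad2). The sets were chosen on these same libraries, and how far that choice narrowed the last range was not tested.

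**Figure D3:**
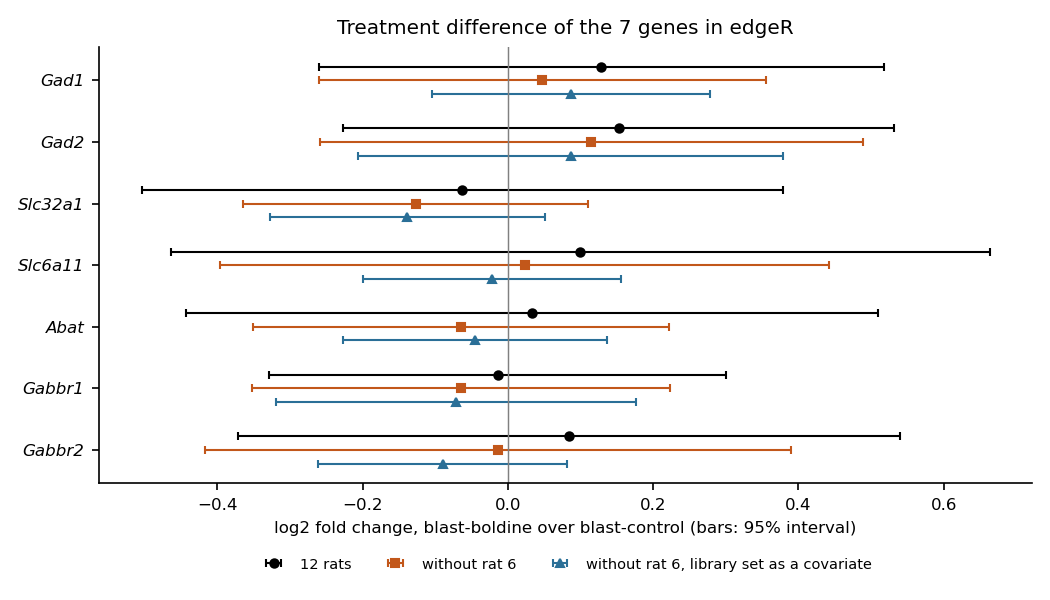
Log2 fold change of each gene, blast-boldine over blast-control, with its 95% interval in 3 edgeR fits: all 12 rats, without rat 6, and without rat 6 with library set as a covariate. Every interval includes 0, and for Slc32a1 all 3 estimates are negative (-0.06, -0.13 and -0.14).

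Ratios within a library do not depend on its scaling, and 3 were compared. The ratio of Gad1 to Gad2 CPM was 1.68 ± 0.414 (SD, n = 6) in blast-boldine and 1.67 ± 0.488 (n = 6) in blast-control rats (exact permutation p = 0.892). Without rat 6 the control mean was 1.77 ± 0.481 (exact permutation p = 0.790, n = 5). By library set it was 1.74 to 2.35 in the first and 1.24 to 1.35 in the second, without overlap, with 1.20 in rat 6. The sets were chosen on these libraries, and 48.6% of all genes tested did not overlap between them, so nothing is read from this split. The ratio of Gabbr1 to Gabbr2 CPM was 2.31 ± 0.575 in blast-boldine and 2.49 ± 0.596 in blast-control rats (exact permutation p = 0.550). The highest, 3.57, was rat 6, and the means without it were 2.31 and 2.28 (exact permutation p = 0.950).

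The ratio of Slc32a1 to the sum of Gad1 and Gad2 sets packaging against synthesis transcripts, and rat 6, with no Slc32a1 count, gives none. It was 0.108 to 0.142 in blast-boldine rats (mean 0.131 ± 0.0122, n = 6) and 0.127 to 0.178 in blast-control rats (0.152 ± 0.0227, n = 5). In the second set the 3 boldine-fed rats, at 0.133, 0.139 and 0.142, all lay below the 2 controls, at 0.162 and 0.178. In the first set the groups overlapped, with boldine-fed rats at 0.108, 0.126 and 0.135 and controls at 0.127, 0.129 and 0.164. The log2 difference over all 11 rats was -0.21 (exact permutation p = 0.0931). An alternative chosen after seeing the data permuted rats within sets and averaged the log2 differences of the sets, each set weighing the same. That average was -0.24 with an exact permutation p of 0.02, where 0.005 is the smallest possible. After Benjamini-Hochberg adjustment over the 3 ratios this p was 0.06. When each of the 11 rats was left out in turn, the within-set p ran from 0.01 to 0.09 and was under 0.05 in 3 of 11 cases. The lower ratio in boldine-fed rats therefore did not hold past the adjustment, nor in the exact permutation test when rat 1 (p = 0.09) or rat 35 (p = 0.07) was left out. Leaving out rat 4, 5 or 20 gave an exact p of 0.05, and leaving out rat 12, 17 or 19 one of 0.0667. These left-out tests allow 80 to 120 assignments, against 200 with all 11 rats, so their p is coarser and its smallest value larger. The difference itself ran from -0.27 to -0.18.

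**Figure D4:**
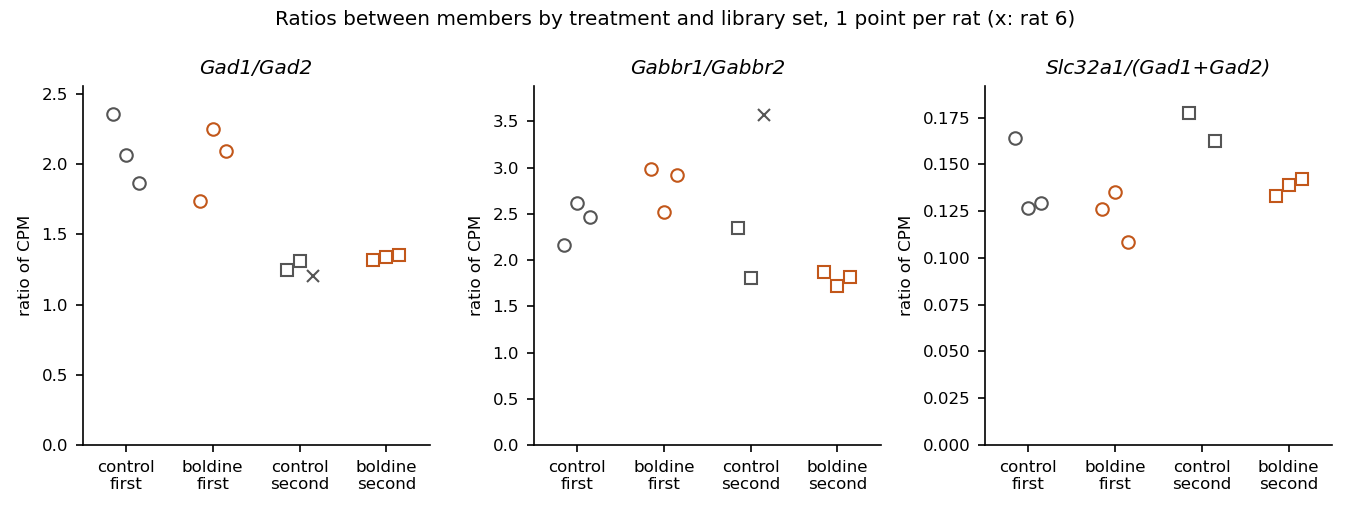
The 3 ratios of CPM within each library, by treatment and library set, with 1 point per rat and a cross for rat 6. Gad1/Gad2 overlaps between treatments and not between the sets (1.74 to 2.35 and 1.24 to 1.35 without rat 6), which were chosen on these libraries. In the second set the ratio of Slc32a1 to Gad1 plus Gad2 is lower in the 3 boldine-fed rats than in the 2 controls. In the first set the groups overlap. The exact permutation p within sets is 0.06 after adjustment over the 3 ratios.

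Differences between library sets, without rat 6, did not run in one direction. From the first to the second set, without rat 6, the fitted log2 differences were 0.56 for Slc6a11, 0.54 for Gabbr2 and 0.29 for Gad2. They were -0.33 for Gad1 and -0.29 for Abat, and 0.14 and 0.10 for Slc32a1 and Gabbr1. The ranges of 2 of the 7 genes, Slc6a11 and Gabbr2, did not overlap between sets, and the same was true of 48.6% of all genes tested. The sets were chosen on these libraries, so nothing is read from either share. The treatment difference was compared between the sets with an interaction term, added after seeing the data. Its unadjusted p ran from 0.151 (Gabbr2) to 0.9745 (Gad2), with all adjusted p at 0.890 or above in edgeR. Gene lists moved with set too. Interneuron markers summed to 705.2 to 986 CPM in the first set and 521.9 to 604.0 CPM in the second, without overlap. The other genes of GABA metabolism and transport summed to 1372 to 1590 and 908.0 to 1120 CPM, and the GABA-B partners and effectors, in the opposite order, to 2266 to 2464 and 3174 to 3395 CPM. Microglial markers summed to 240.1 to 259.8 CPM in the first set and 107.0 to 170.0 CPM in the second, and endothelial markers to 61.2 to 91.8 and 176.5 to 242.9 CPM. Their part in the differences between sets was not tested.

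Of the other genes of GABA metabolism and transport, 11 of 12 listed were measured and 10 tested. Slc6a13 alone reached an unadjusted p under 0.05 in edgeR. Over all genes tested that share was 1.07% with all rats and 5.35% without rat 6 and with set as a covariate. The median log2 fold change of the 10 was 0.03 with all rats, against 0.00 over all genes, and -0.04 without rat 6. Slc6a13 encodes a GABA transporter known mainly from the meninges and from outside the brain. It was at 2.60 to 8.96 CPM in blast-boldine rats and at 1.92 to 2.94 CPM in blast-control rats without rat 6, where its only count amounts to 15.8 CPM. Rats 32 and 35 were highest at 8.96 and 7.02 CPM, and the lowest boldine-fed rat lay below the highest deep control. Its log2 fold change was 0.98 ± 0.35 (SE, edgeR adjusted p = 1.0), and 1.03 ± 0.30 (adjusted p = 0.898) without rat 6 and with set as a covariate.

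Choroid plexus markers (Ttr, Kl, Folr1 and Clic6) varied widely between rats, from 8.23 to 1172 CPM in blast-boldine and from 12.8 to 1129 CPM in blast-control rats without rat 6, where all 4 were at 0. Rats 32 and 35, the highest in Slc6a13, had 977.3 and 47.8 CPM of these markers. Their part in the Slc6a13 difference was not tested. Aldh5a1, which oxidises the product of Abat, was at 184.3 ± 20.5 CPM in blast-boldine and 209.4 ± 31.4 CPM in blast-control rats, with a log2 fold change of -0.17 ± 0.13 (SE), or -0.15 ± 0.12 without rat 6.

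Of the partners and effectors of GABA-B receptors, 11 of 13 listed were measured and tested, and 0 had an unadjusted p under 0.05 in any of the 3 edgeR fits. The smallest belonged to Gnai1, an inhibitory G protein subunit, with a log2 fold change of 0.20 ± 0.12 (SE, edgeR adjusted p = 1.0), or 0.16 ± 0.11 without rat 6. The potassium channel genes Kcnj3, Kcnj6 and Kcnj9 had log2 fold changes of 0.04, -0.02 and -0.11 with all rats and -0.04, 0.10 and -0.09 without rat 6. The median over the 11 genes was -0.02 with all rats and -0.03 without rat 6. Among the 15 interneuron markers 0 had an unadjusted p under 0.05 and the median log2 fold change was 0.01 with all rats and -0.02 without rat 6, with values for Sst of -0.12 and -0.18 in turn. Those for Pvalb were 0.01 and -0.0012.

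**Figure D5:**
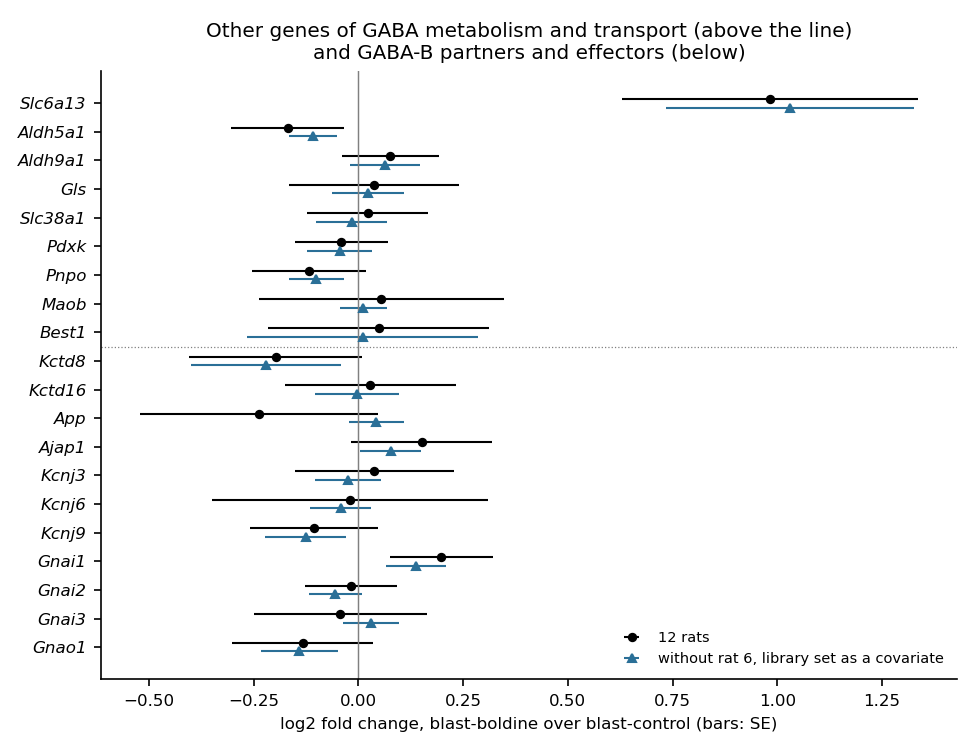
Log2 fold change with SE, blast-boldine over blast-control, for 9 of the 10 tested genes of GABA metabolism and transport above the dotted line and the 11 GABA-B partners and effectors below it, in edgeR with 12 rats and without rat 6 with library set as a covariate. Slc6a13 stands alone near 1 (0.98 and 1.03), and no gene had an adjusted p under 0.05.

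Of the other 9 marker lists, covering striatum, hippocampal excitatory neurons, thalamus, cortex, astrocytes, oligodendrocytes, microglia, endothelium and choroid plexus, only thalamus held a gene with an unadjusted p under 0.05 in edgeR with all rats. That gene was Slc17a6, the vesicular glutamate transporter of many subcortical neurons. It was at 11.8 to 27.0 CPM in blast-boldine and 16.4 to 63.4 CPM in blast-control rats, the highest being the 4 counts of rat 6. Its log2 fold change was -0.64 ± 0.27 (SE, edgeR adjusted p = 1.0), or -0.60 ± 0.27 without rat 6. The other thalamic markers did not share one direction, at -0.21 for Prkcd, 0.23 for Tcf7l2 and 0.40 for Lef1 with all rats. The median of the list was 0.007. Over all genes tested in that fit, 1.07% had an unadjusted p under 0.05. Without rat 6 and with set as a covariate, the cortical marker Tbr1 (log2 fold change -0.45) and the hippocampal marker Wfs1 (-0.28) were also under 0.05, each with an adjusted edgeR p of 0.898. Against these genes stands the 5.35% of all genes under that threshold in this fit.

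Among the 7 genes, the rats varied together most for Gad1 and Gad2, with Pearson r = 0.93 over 11 libraries after set means were subtracted. Abat and Gabbr1 followed with r = 0.86 and Slc6a11 and Abat with r = 0.72. In Abat, Gabbr1 and Slc6a11 control rat 4 was the highest of the second set. It had 129.8 CPM of Abat, 1377 of Gabbr1 and 88.8 of Slc6a11. The rest of that set, without rat 6, had at most 102.2, 1028 and 78.4 CPM. How far either r rests on rat 4 was not tested. Slc32a1 followed Gad1 and Gad2 less closely, at r = 0.29 and 0.49. These are descriptions over few libraries that share depth and composition effects.

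The genes most like each member on this measure, out of 12529, were chosen for the highest r over the same 11 libraries. For Gad1 they were Rpl6 (r = 0.95), Rbbp4 (0.95) and Kif2a (0.94), and for Gad2 Ran (0.94), Ndfip1 (0.94) and Syt4 (0.94). Those for Slc32a1 were Pemt (0.88) and Tmem14a (0.86). Slc6a11 ran with Padi2 (0.91), Slc7a10 (0.90), an astrocytic amino acid transporter, and Zfp36l1 (0.87). Abat ran with Slc35a3 (0.96), Lrrc8a (0.96) and St6galnac6 (0.95). For the receptor genes they were Cd81, Tubb4b and Gaa (each 0.98) with Gabbr1, and Rab9a (0.93), Fam120b (0.92) and Slc25a16 (0.91) with Gabbr2.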

How the data were processed

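Ribosomal RNA-depleted, stranded libraries were made from RNA of 12 rats, 1 per rat. Per the study's methods, HTStream was used by the authors to remove duplicates and trim, STAR 2.7.11b to align to mRatBN7.2, and they counted exonic reads per gene by strand with featureCounts (Subread 2.0.1), and the deposited counts are raw. Groups were taken from the labels. Here edgeR 4.0.16 in R 4.3.3 was used with TMM scaling, filterByExpr and its quasi-likelihood test (treatment as the only term), with Benjamini-Hochberg adjustment over all genes tested. The prior count was 2 for log2 CPM in the exact permutation tests of single genes, and log2 ratios of CPM took no prior count. Exact 95% binomial intervals (SciPy 1.17.1) and 3-count floors cover counting error only. DESeq2 1.42.0 and limma 3.58.1 (voom), other scalings, filters and priors, library set as a covariate and each rat left out were alternatives.

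The genes, lists and tests were chosen with earlier results of these data known. Named genes were the 7 members, listed genes with an unadjusted p under 0.05 in the edgeR fit of 12 rats or of 11 with set as a covariate, defining markers, and for each member the 3 genes of highest Pearson r. Results for a few genes this rule names are not reported here. A few pathway and marker genes were named for their role after their values were seen: Aldh5a1, Gnai1, Kcnj3, Kcnj6, Kcnj9, Sst and Pvalb. The script was tested on simulated data. Deposited gene lengths (bases of exon) gave CPM per kb.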

Additional observations from a re-analysis of the deposited data

Results flagged for a closer look

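Dixon's test over groups of 4 to 10 rats set apart 2 of 29 groups, both by the low value of rat 6, and chance alone sets apart about 1 in 20. Slc32a1 was at 0 CPM in rat 6 of the blast-control group, against 42.7 CPM or more in the other 5 controls. Abat was at 15.8 CPM in the same rat, which is 1 count, against 95.3 CPM or more in the other 5.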

How the results depend on the processing

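With rat 6 or another rat left out, other scalings, filters, voom, DESeq2 or library set as a covariate, 0 of the 7 genes had an unadjusted p under 0.05 and no gene an adjusted one. Signs near 0 turned, and the cause was not tested. Fitted with set but not rat 6, Slc6a11 had a log2 fold change of -0.022, Abat of -0.045 and Gabbr2 of -0.0899. With set as a covariate and all rats it was -0.0169 for Abat and -0.0096 for Gabbr2. With voom Abat was at -0.0195, and with DESeq2 without rat 6 Abat was at -0.0623 and Gabbr2 at -0.0151. With a minimum of 10 counts in every library but rat 6, Gabbr1 was at 0.0072. Leaving out each rat in turn gave -0.0648 to 0.099 for Abat, -0.0646 to 0.11 for Gabbr1 and -0.0135 to 0.21 for Gabbr2.

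In the exact permutation tests, leaving out rat 6 turned the mean log2 difference to -0.13 for Slc32a1, -0.0695 for Abat, -0.0416 for Gabbr1 and -0.0321 for Gabbr2. Taken as the mean of the within-set differences without rat 6, it was -0.15 for Slc32a1, -0.0299 for Slc6a11, -0.0516 for Abat, -0.0596 for Gabbr1 and -0.0727 for Gabbr2. The log2 ratio difference of Gad1 to Gad2 ran from -0.0687 to 0.13 when each rat was left out, and that of Gabbr1 to Gabbr2 was 0.0131 within sets without rat 6. For Slc32a1 to Gad1 plus Gad2 it was -0.24 within sets and -0.15 to -0.27 with each rat left out, passing 0.05 at -0.27 without rat 7. Of the marker lists, cortex went from 0 to 2 genes and hippocampal excitatory neurons from 0 to 1 with set as a covariate and without rat 6. No paired analysis was possible because the groups share no replicate number. The 74008 counts of rat 6 limit every value there.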
